A study of Mus musculus with 11 samples.

Results

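The variable (V) segments of the T cell receptor alpha and beta chains were described across 11 bulk RNA-seq libraries of renal CD4+ T cells. The members were the rows of the count table whose symbol is Trav or Trbv followed by a digit. There were 165 such rows among 35814 symbols, of which 130 were alpha and 35 were beta segments. All mice were adult male C57BL/6 animals with Cre recombinase under the CD4 promoter, and all kidneys were collected on day 2 after ischemia–reperfusion injury (IRI), in which the renal blood flow is stopped and restored. CD4cre mice (3 libraries, genotype label WT) carried no floxed gene, CD4IKK1 mice (5 libraries, IKK1 knockout) carried floxed IKK1, encoded by Chuk, and CD4NIK mice (3 libraries, NIK knockout) carried floxed NIK, encoded by Map3k14. IKK1 and NIK are kinases of NFκB signalling, and the comparison of genotypes asks what their loss does to the transcriptome of CD4+ T cells in the injured kidney. Since the CD4 promoter is active while T cells mature in the thymus, this Cre deletes in every cell that has passed through a CD4-expressing stage, and not in renal CD4+ cells alone. The labels call the samples of a group biological replicates, and the study gives their number as a number of mice.

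A T cell receptor is a pair of an alpha and a beta chain. In each developing T cell 1 V segment is joined to a joining segment (with a diversity segment between them in the beta chain), and the joined exon is spliced to the constant region, Trac for alpha and Trbc1 or Trbc2 for beta. The recombinase RAG cuts at a signal next to each V segment, made of a heptamer, a spacer and a nonamer. Because each T cell carries its own choice of segments, a diverse population uses many V segments, whereas expanded clones or invariant T cells raise the share of single segments. In mice, the invariant alpha chain of natural killer T cells joins Trav11 to Traj18, and that of mucosal-associated invariant T cells joins Trav1 to Traj33.

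The libraries held 15751632 to 25737046 counts each, and V segments made up 0.000287% to 0.0451% of them, so the number of V counts, not the sequencing depth, limits what follows. The libraries CD4IKK1 1 and CD4IKK1 2 stood apart, with 41 and 868 constant-region counts against 5277 to 11413 in CD4IKK1 3, 4 and 5 and 12558 to 111648 in the other groups. Results that turn on them are given with and without them. Chuk read 16.6, 33.2 and 16.3 CPM (counts scaled to 1000000 per library) in CD4cre and 16.7, 21.3, 22.3, 15.3 and 26.5 CPM in CD4IKK1, and the groups overlapped. Map3k14 read 19.4, 19.6 and 14.7 CPM in CD4cre and 12.8, 30.8 and 23.8 CPM in CD4NIK, and these groups overlapped as well. In CD4IKK1, Map3k14 read 1.87, 4.92, 6.16, 9.24 and 7.66 CPM, below every other library (edgeR log2 fold change −1.58 ± 0.46 against CD4cre, SE, adjusted p = 0.148; −1.91 ± 0.44 against CD4NIK, adjusted p = 0.00418), so the gene of NIK was lowest in the group labelled IKK1 knockout. The counts cover the whole transcripts and not the floxed exons alone, so neither gene checks the deletion here. The group names are those of the labels throughout. Cd4 itself ranged from 51.1 to 78.4 CPM in CD4cre, from 2.07 to 68.9 CPM in CD4IKK1 and from 316 to 382 CPM in CD4NIK. The summed level of 7 neuron markers was 1405 to 1758, 1816 to 2171 and 459 to 1004 CPM in these groups, that of 15 T cell complex genes was 1210 to 1916, 224 to 1006 and 5530 to 6575 CPM, and the part of other cells in the results below was not tested.

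Alpha V segments lie on chr14:52665385-54215135 and beta V segments on chr6:40868163-41535386 (GRCm39). The annotation calls 110 alpha and 22 beta segments genes and 20 alpha and 13 beta segments pseudogenes. The ends of 12 segments are printed: 6 of the most used beta segments, the alpha segments of invariant T cells with a copy of Trav11, and alpha segments with near-identical or identical copies. Each line gives the last 60 bases of the second exon, which encode the end of the V region with its conserved cysteine, followed by the recombination signal. In the Trav11d line, 1 base outside the annotated exon stands between the exon and the heptamer. Capitals mark the heptamer and the nonamer, and the strand is plus.
Trav11 (chr14:53757257-53757355): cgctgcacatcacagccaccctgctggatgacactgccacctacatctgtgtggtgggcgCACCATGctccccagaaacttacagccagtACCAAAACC
Trav11d (chr14:53062310-53062409): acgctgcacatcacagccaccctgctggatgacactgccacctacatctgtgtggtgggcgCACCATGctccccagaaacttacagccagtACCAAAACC
Trav1 (chr14:52666274-52666372): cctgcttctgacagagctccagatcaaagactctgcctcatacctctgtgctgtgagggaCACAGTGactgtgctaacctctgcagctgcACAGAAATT
Trav7d-2 (chr14:52921870-52921968): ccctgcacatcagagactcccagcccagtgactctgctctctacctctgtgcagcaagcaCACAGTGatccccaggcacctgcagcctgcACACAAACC
Trav14d-1 (chr14:53093564-53093662): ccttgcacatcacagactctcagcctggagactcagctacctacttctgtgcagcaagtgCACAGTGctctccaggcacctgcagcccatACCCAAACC
Trav14n-1 (chr14:53404576-53404674): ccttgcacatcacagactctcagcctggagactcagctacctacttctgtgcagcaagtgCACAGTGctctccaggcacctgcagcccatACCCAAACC
Trbv1 (chr6:40868760-40868858): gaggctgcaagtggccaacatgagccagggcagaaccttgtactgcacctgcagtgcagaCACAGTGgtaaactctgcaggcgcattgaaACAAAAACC
Trbv2 (chr6:41024870-41024968): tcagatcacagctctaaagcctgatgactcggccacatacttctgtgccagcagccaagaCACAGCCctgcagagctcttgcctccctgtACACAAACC
Trbv12-2 (chr6:41096239-41096337): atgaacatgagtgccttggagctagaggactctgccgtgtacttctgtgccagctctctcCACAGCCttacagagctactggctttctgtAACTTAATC
Trbv13-1 (chr6:41093343-41093441): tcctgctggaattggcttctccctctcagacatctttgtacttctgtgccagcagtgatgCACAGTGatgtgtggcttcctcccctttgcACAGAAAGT
Trbv13-2 (chr6:41098707-41098805): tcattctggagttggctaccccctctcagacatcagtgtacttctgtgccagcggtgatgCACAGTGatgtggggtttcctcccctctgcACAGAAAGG
Trbv19 (chr6:41155923-41156021): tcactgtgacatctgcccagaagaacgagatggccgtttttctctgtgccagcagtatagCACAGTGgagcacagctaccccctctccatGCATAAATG

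Trav11d is shown because its annotated transcript is contained in that of Trav11, which has 1 more base at its end, and the Trav14d-1 and Trav14n-1 lines because they are the same sequence at separate places. The heptamer CACAGTG stood at 0 to 2 bases after the exon in 94 of 110 alpha genes (85.5%) and in 8 of 22 beta genes (36.4%), against 110 of all 165 segments (66.7%). A nonamer with at most 2 mismatches to ACAAAAACC stood 23 bases further on in 71 alpha genes (64.5%) and 10 beta genes (45.5%), against 88 of all 165 segments (53.3%). Among the beta segments printed, Trbv12-2 and Trbv2 have CACAGCC in place of CACAGTG, and the Trav11 copies have CACCATG. The first 3 letters CAC were present in 110 of 110 alpha genes and in 21 of 22 beta genes. These matches on the coding strand describe letters and say nothing about how often a segment is cut. At the level of whole transcripts, Trbv13-2 and Trbv13-3 were 90.6% identical, Trbv12-1 and Trbv12-2 88.3% and Trbv13-1 and Trbv13-2 84.1%.

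Near-identical copies set a limit on single alpha segments. Part of the alpha locus is duplicated in C57BL/6 mice, and 34 segments have a transcript identical to that of another, together 23.5% of all alpha V counts. All 15 identical pairs with at least 10 counts had equal counts in every library (tolerance 0.5 counts), since kallisto, which estimated the counts, divides shared reads evenly. In 4 further pairs the transcripts differed only by 1 to 6 extra bases, and in none of the 30 library values with any count did both members receive counts. Trav11d was listed at 0 in all libraries and Trav11 took 3497 counts, so these copies cannot be told apart. The same holds for Trav7-2, counted in CD4cre and CD4IKK1, and Trav7d-2, counted in CD4NIK.

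Of the 165 segments, 12 alpha and 8 beta segments had 0 counts in every library. The 8 beta segments were all pseudogenes, and of the 12 alpha segments 10 were pseudogenes and 2 were genes. With more than 3 counts taken as detected, 111 alpha and 24 beta segments were detected in at least 1 library, including all 22 beta genes. Pseudogenes held 1.26% of alpha and 0.586% of beta V counts. In at least 6 of the 11 libraries, 27 alpha and 18 beta segments were detected, so most beta genes recurred whereas most alpha segments were seen in few libraries.

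The number of alpha segments detected was 65, 40 and 34 in CD4cre, 5, 7, 9, 24 and 24 in CD4IKK1, and 72, 98 and 96 in CD4NIK. The 3 groups did not overlap in this number, with all CD4IKK1 libraries lowest and all CD4NIK libraries highest. It was 13.8 ± 9.42 (SD, n = 5) in CD4IKK1 against 46.3 ± 16.4 (SD, n = 3) in CD4cre (two-sided exact permutation test, p = 0.0179, the smallest that 5 against 3 libraries allow; 0.116 after Benjamini-Hochberg adjustment over the 13 measures compared). In CD4NIK it was 88.7 ± 14.5 (SD, n = 3), with p = 0.1 against CD4cre in the exact permutation test, which cannot go lower with 3 against 3 libraries (adjusted p = 0.217). CD4IKK1 and CD4NIK differed with p = 0.0179 (exact permutation test, adjusted p = 0.0743). Without CD4IKK1 1 and 2 the CD4IKK1 number was 19.0 ± 8.66 (SD, n = 3).

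The number of beta segments detected was 23, 20 and 17 in CD4cre, 0, 1, 8, 12 and 15 in CD4IKK1, and 21, 24 and 22 in CD4NIK. All CD4IKK1 libraries were below all others, whereas CD4cre and CD4NIK overlapped. The mean was 7.2 ± 6.61 (SD, n = 5) in CD4IKK1, 20 ± 3 (SD, n = 3) in CD4cre and 22.3 ± 1.53 (SD, n = 3) in CD4NIK, with p = 0.0357 for CD4IKK1 against CD4cre (exact permutation test, adjusted p = 0.155) and p = 0.4 for CD4NIK against CD4cre. Without CD4IKK1 1 and 2 it was 11.7 ± 3.51 (SD, n = 3). The number of alpha segments detected followed the number of alpha V counts. The beta number levelled off, with 23 segments in CD4cre 1 and 21 in CD4NIK 1, which had more counts. Alpha V counts were 1385, 1057 and 503 in CD4cre, 46, 69, 195, 443 and 468 in CD4IKK1, and 2418, 4718 and 3197 in CD4NIK. Beta V counts were 1725, 805 and 403, then 0, 14, 168, 172 and 275, then 3200, 4888 and 3701 in the same order. In bulk samples, fewer T cells and less receptor RNA per cell cannot be told apart.

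**Figure D1:**
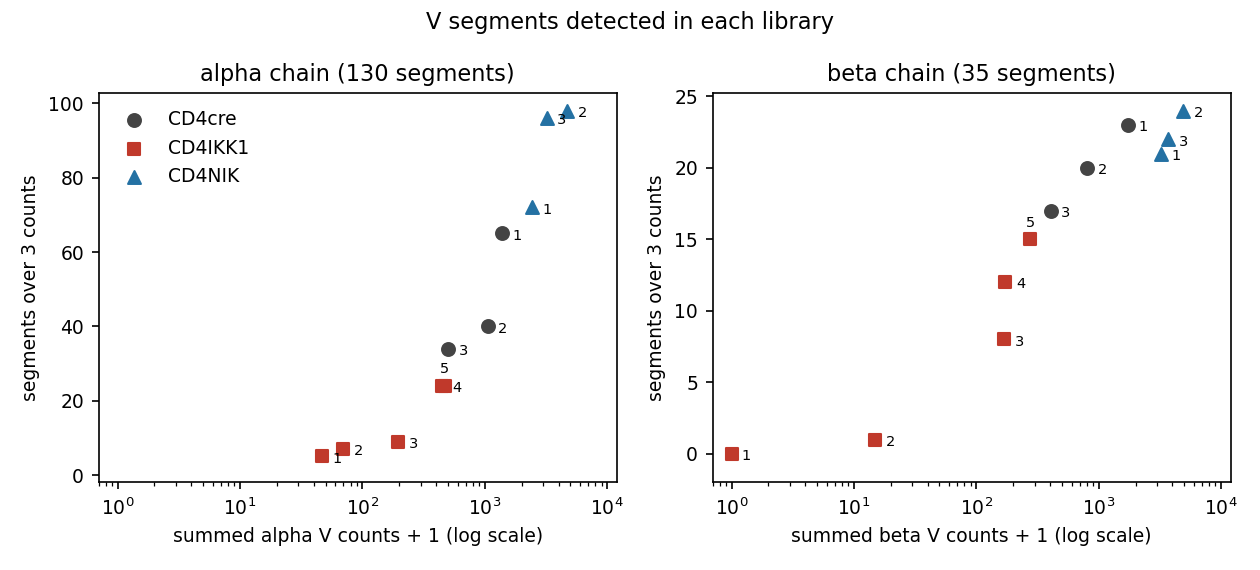
Number of alpha and beta V segments detected with more than 3 counts in each library (y axis) against the V counts of that chain in the library plus 1 (x axis, log scale), with symbols by group and replicate numbers beside them. The CD4IKK1 libraries lie at the lower left with 5 to 24 alpha segments and the CD4NIK libraries at the upper right with 72 to 98, whereas the beta numbers of the CD4NIK libraries (21 to 24) lie beside those of CD4cre (17 to 23).

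To compare libraries at equal depth, the expected number of segments was computed for 69 alpha counts or 168 beta counts drawn from each library, which left out CD4IKK1 1 for alpha and CD4IKK1 1 and 2 for beta. At that depth, CD4cre libraries would show 32.5, 24.0 and 29.6 alpha segments, CD4IKK1 2 to 5 would show 14.0, 15.5, 21.9 and 23.8, and CD4NIK libraries 34.9, 34.4 and 37.5. The groups again did not overlap, although the highest CD4IKK1 library, at 23.8, lay just below the lowest CD4cre library, at 24.0. The means were 18.8 ± 4.78 (SD, n = 4), 28.7 ± 4.30 (SD, n = 3) and 35.6 ± 1.64 (SD, n = 3), with p = 0.0571 for CD4IKK1 against CD4cre (exact permutation test, adjusted p = 0.163) and p = 0.0286 for CD4IKK1 against CD4NIK (exact permutation test, adjusted p = 0.0743). Without CD4IKK1 2 as well, the CD4IKK1 value was 20.4 ± 4.34 (SD, n = 3). Equal counts are not equal molecules or cells, since PCR copies of 1 molecule are counted more than once. The part of the number of starting molecules in these values and in the beta values at equal depth was not tested.

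At 168 beta counts the expected number was 20.0, 19.3 and 19.1 segments in CD4cre, 9.0, 15.0 and 16.7 in CD4IKK1 3, 4 and 5, and 18.3, 20.0 and 19.6 in CD4NIK. CD4cre and CD4NIK lay close together, with means of 19.5 ± 0.458 (SD, n = 3) and 19.3 ± 0.868 (SD, n = 3), and p = 0.9 in the exact permutation test. The 3 CD4IKK1 libraries were lower, at 13.6 ± 4.06 (SD, n = 3), and the exact permutation test against CD4cre gave its smallest possible p of 0.1. At equal depth all 3 CD4IKK1 libraries lay below the other 6, whereas CD4cre and CD4NIK overlapped.

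The effective number of segments, the exponential of the Shannon entropy of the shares, weighs segments by use. It and the share of the 5 most used segments were computed on all counts of each library, not at equal depth. A library of few counts misses rare segments, which by itself lowers this number and raises that share. For alpha the effective number was 32.9, 12.3 and 26.2 in CD4cre, 10.1, 9.89, 12.2 and 17.8 in CD4IKK1 2 to 5, and 46.3, 34.7 and 50.8 in CD4NIK. All CD4NIK libraries exceeded all others, and CD4cre 2 lay within the range of CD4IKK1. The means were 23.8 ± 10.5 (SD, n = 3), 12.5 ± 3.71 (SD, n = 4) and 43.9 ± 8.31 (SD, n = 3), with p = 0.114 for CD4IKK1 against CD4cre and p = 0.1 for CD4NIK against CD4cre in exact permutation tests (adjusted p = 0.165 for the former). The 5 most used alpha segments took 42.1%, 62.1% and 45.3% of alpha V counts in CD4cre, 71.0%, 74.9%, 64.6% and 57.7% in CD4IKK1 2 to 5, and 30.4%, 42.7% and 34.0% in CD4NIK. CD4IKK1 and CD4NIK did not overlap in that share, at 67.0% ± 7.54 (SD, n = 4) and 35.7% ± 6.33 (SD, n = 3), and differed with p = 0.0286 (exact permutation test, adjusted p = 0.0743). Without CD4IKK1 2, the CD4IKK1 values were 13.3 ± 4.08 effective segments and a top-5 share of 65.7% ± 8.65 (SD, n = 3).

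For beta, the effective number was 14.5, 14.5 and 12.8 in CD4cre, 6.56, 10.4 and 11.5 in CD4IKK1 3 to 5, and 11.6, 14.6 and 14.8 in CD4NIK. The 5 most used beta segments took 56.9%, 54.3% and 60% of beta V counts in CD4cre, 83.9%, 69.2% and 61.8% in CD4IKK1 3 to 5, and 65.0%, 57.4% and 55.0% in CD4NIK. CD4NIK 1 was the most uneven CD4NIK library, with a share above that of CD4IKK1 5. CD4NIK did not differ from CD4cre beyond the spread, with p = 1 for the effective number and p = 0.6 for the share (exact permutation tests). The 3 CD4IKK1 libraries had means of 9.47 ± 2.58 effective segments and 71.6% ± 11.3 in the top 5 against 13.9 ± 0.952 and 57.1% ± 2.89 in CD4cre (SD, n = 3 each), and both exact permutation tests gave the smallest possible p of 0.1.

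Shares are of counts and not per base. By counts, the most used beta segments over the 9 libraries with shares (at least 50 counts of the chain) were Trbv12-2 (mean 13.9%), Trbv19 (13.3%), Trbv2 (11.1%), Trbv13-2 (9.37%), Trbv1 (9.02%) and Trbv13-1 (6.40%, or 3.85% without CD4IKK1 3). Per base of transcript the same 6 segments led in the order Trbv12-2, Trbv13-2, Trbv19, Trbv1, Trbv2 and Trbv13-1, since the annotated transcripts of Trbv19 and Trbv2 are long (566 and 560 bases against 340 to 417 for the other 4). Trbv12-2 took 19.4%, 14.0% and 21.8% of beta V counts in CD4cre, 6.55%, 4.07% and 26.5% in CD4IKK1 3 to 5, and 6.44%, 12.5% and 13.7% in CD4NIK. It ranked first in all 3 CD4cre libraries and in CD4IKK1 5. Trbv13-2, a segment of the Vβ8 family that natural killer T cells often use, took 8.99%, 12.8% and 7.20% in CD4cre, 0%, 11.0% and 6.91% in CD4IKK1 3 to 5, and 5.13%, 17.7% and 14.6% in CD4NIK. In CD4IKK1 3, 0 of 168 beta counts were from Trbv13-2, which allows a share of up to 1.79% (3 counts of the total, the limit used for all shares of 0). Trbv13-2 ranked first in CD4NIK 2 and CD4NIK 3.

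Single libraries departed from this order. In CD4NIK 1, Trbv2 took 24.9% (797 of 3200 counts, Wilson 95% interval 23.4 to 26.4%), against 8.98% and 6.43% in CD4NIK 2 and 3 and 5.51% to 8.57% in CD4cre. Trbv2 took 11.9%, 12.2% and 14.2% in CD4IKK1 3 to 5. In CD4IKK1 3, Trbv13-1 and Trbv19 took 45 of 168 counts each, or 26.8% (Wilson 95% interval 20.7 to 34.0%), whereas Trbv13-1 took 3.23% to 4.10% in CD4cre. Trbv12-2 took 26.5% (21.7 to 32.1%) in CD4IKK1 5. Trbv1 took 25.6% (19.6 to 32.6%) in CD4IKK1 4 and 2.50% to 10.6% in the other 8 libraries. These intervals cover counting error only, because PCR copies of 1 molecule are counted more than once. The share of beta usage common to a pair of libraries, the sum over segments of the smaller share, was 77.7% to 80.6% within CD4cre, 62.5% to 88.2% within CD4NIK and 45.5% to 52.8% within CD4IKK1. Between CD4NIK and CD4cre libraries it was 59.9% to 87.5% with a median of 73.7%. That median was below the lowest value within CD4cre but above the median within CD4NIK, which was 64.1%. Between CD4IKK1 and CD4cre libraries the median was 63.5%, below every value within CD4cre and above every value within CD4IKK1. Libraries of different genotypes were thus not less alike in beta usage than those within CD4NIK or within CD4IKK1, by these medians.

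**Figure D2:**
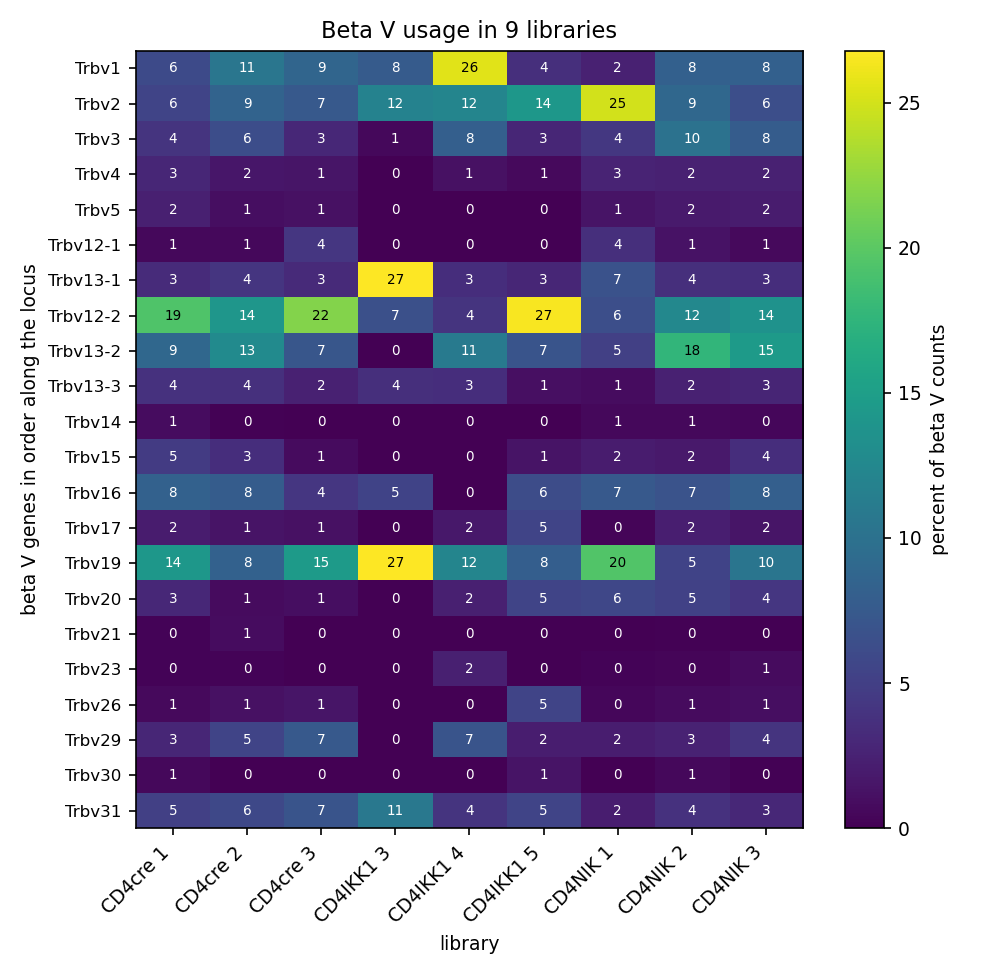
Share of beta V counts (percent, printed in each cell) for the 22 beta V genes in their order along chromosome 6 (rows) in the 9 libraries with at least 50 beta V counts (columns). Trbv12-2 is high in all CD4cre columns, and single cells stand out in CD4IKK1 3 (Trbv13-1 and Trbv19, 26.8% each), CD4IKK1 4 (Trbv1, 25.6%), CD4IKK1 5 (Trbv12-2, 26.5%) and CD4NIK 1 (Trbv2, 24.9%).

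Among alpha segments, Trav11 led with a mean share of 24.2% over 10 libraries, or 21% without its highest library, CD4cre 2. The next means were carried in part by single libraries of few counts. Trav14-3 had a mean of 4.03%, or 1.06% without CD4IKK1 3, and Trav3d-3 and its identical copy Trav3n-3 had 2.95% each, or 1.19% without CD4IKK1 2. Trav7-4 had 4.78%, or 3.26% without CD4IKK1 3, and Trav9-1 had 2.83%, or 2.49% without CD4cre 1, so the order after Trav11 depended on the libraries. Trav11 held 363, 557 and 134 counts in CD4cre, 0, 7, 0, 199 and 145 in CD4IKK1, and 7, 1512 and 573 in CD4NIK. As a share of alpha V counts this was 26.2% (Wilson 95% interval 24.0 to 28.6%), 52.7% (49.7 to 55.7%) and 26.6% (23 to 30.7%) in CD4cre. In CD4IKK1 2 to 5 it was 10.1% (5.00 to 19.5%), 0% of 195 counts (allowing up to 1.54%), 44.9% (40.4 to 49.6%) and 31.0% (27.0 to 35.3%). In CD4NIK it was 0.289% (0.140 to 0.596%), 32.0% (30.7 to 33.4%) and 17.9% (16.6 to 19.3%). Trav11 was the first segment in 7 of 10 libraries and nearly absent in CD4IKK1 3 and CD4NIK 1, and within each genotype the counting intervals of the highest and lowest library did not overlap.

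Other genes of the cells that carry the invariant chain were read in the same libraries. Klrb1c, which encodes the NK1.1 receptor of natural killer cells and most natural killer T cells in this strain, was 2.87, 6.16 and 2.03 counts per 100 counts of Cd3d and Cd3e in CD4cre. It was 9.88, 0.0751, 6.77 and 5.43 in CD4IKK1 2 to 5, and 1.04, 2.35 and 3.66 in CD4NIK. CD4IKK1 1 had 0 Klrb1c counts beside 19 Cd3d and 4 Cd3e counts. Among the other libraries, the lowest value in CD4IKK1 and the lowest in CD4NIK were those of CD4IKK1 3 and CD4NIK 1, the libraries in which Trav11 was nearly absent, and the relation was not tested. The marker genes did not all follow Trav11. Traj18, the joining segment of the invariant chain, had 24, 32 and 17 counts in CD4cre, 0, 11, 9, 22 and 10 in CD4IKK1, and 9, 92 and 36 in CD4NIK. Zbtb16, which encodes the transcription factor PLZF of natural killer T cells, had 818, 506 and 326 counts in CD4cre, 186 to 512 in CD4IKK1, and 130, 538 and 282 in CD4NIK. As a share of all Traj counts, Traj18 took 4.15% to 4.96% in CD4cre, 34.4% (11 of 32 counts), 11.4% (9 of 79), 13.4% and 5.95% in CD4IKK1 2 to 5, and 2.49%, 6.10% and 5.11% in CD4NIK. CD4NIK 1 was the lowest CD4NIK library for Traj18 and Zbtb16. CD4IKK1 3, without Trav11 counts, had a Traj18 share above that of every CD4cre library, and its 238 Zbtb16 counts were not the lowest of its group.

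**Figure D3:**
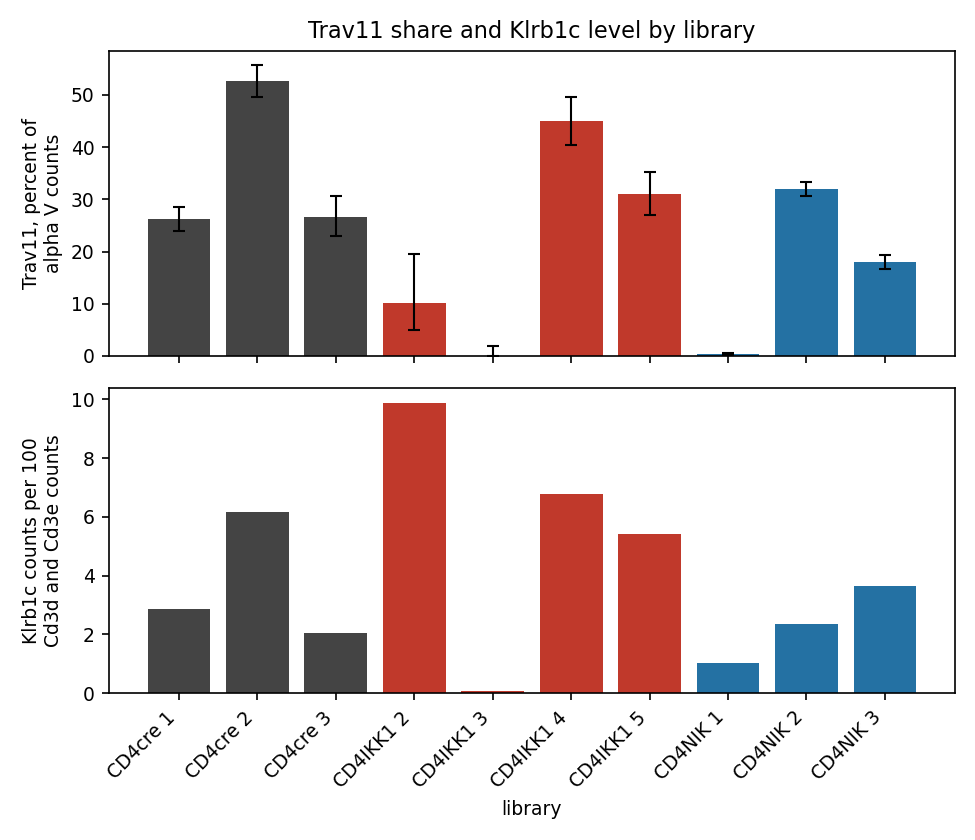
Upper panel, share of Trav11 in alpha V counts (percent) in the 10 libraries with at least 50 alpha V counts, with Wilson 95% intervals as bars; lower panel, Klrb1c counts per 100 counts of Cd3d and Cd3e in the same libraries. CD4IKK1 3 (0%) and CD4NIK 1 (0.289%) are low in the upper panel and hold the lowest values drawn for their groups (0.0751 and 1.04) in the lower panel.

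Trav1, the segment of mucosal-associated invariant T cells, was found in 4 libraries. It had 54 of 468 alpha V counts in CD4IKK1 5 (11.5%, Wilson 95% interval 8.95 to 14.8%), 80 of 2418 in CD4NIK 1 (3.31%, 2.67 to 4.10%), and 5 counts each in CD4NIK 2 and 3. In the 3 CD4cre libraries it was at 0 of 1385, 1057 and 503 counts, which allows shares of up to 0.217%, 0.284% and 0.596%. Traj33, its partner, had 20 counts in CD4IKK1 5, 2 in CD4NIK 1 and 14 to 18 in CD4cre, so the library with the most Trav1 counts was not the one with the most Traj33 counts, which was CD4NIK 2 with 50.

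The other alpha segments were spread thinly, with peaks in the libraries of few counts. Trav14-3 took 60 of 195 counts in CD4IKK1 3 (30.8%, Wilson 95% interval 24.7 to 37.6%) and 0 to 62 counts elsewhere. By subgroup, the Trav14 segments (9 members) held a mean of 12.7% of alpha V counts, Trav7 (14 members) 9.31%, Trav3 (8 members) 8.49%, Trav9 (11 members) 8.37% and Trav13 (13 members) 7.34%. Over the libraries these ranged from 2.90% to 38.5%, 4.26% to 20.0%, 0.855% to 37.7%, 1.54% to 13.2% and 2.56% to 20.3%. The order of the means therefore rests in part on single libraries. The common share of alpha usage was 48.8% to 63.0% within CD4cre, 49.1% to 76.5% within CD4NIK and 10.5% to 46.8% within CD4IKK1, with and without CD4IKK1 2. The segments Trav17 to Trav23, at the end of the alpha V array nearest the joining segments, held 1.73%, 0.284% and 1.59% in CD4cre, 0%, 2.56%, 0% and 2.56% in CD4IKK1 2 to 5, and 5.54%, 2.54% and 1.88% in CD4NIK. The high value of CD4NIK 1 came from Trav19, with 126 of its 2418 alpha V counts (5.21%).

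Relative to the constant regions, V counts were few in all groups. Alpha V counts per Trac count were 0.136, 0.182 and 0.143 in CD4cre, 46.0, 0.303, 0.0810, 0.329 and 0.196 in CD4IKK1, and 0.104, 0.116 and 0.0913 in CD4NIK. The value 46.0 belongs to CD4IKK1 1, which had 46 alpha V counts and 1 Trac count. The group means were 0.154 ± 0.0246 (SD, n = 3) in CD4cre and 0.104 ± 0.0122 (SD, n = 3) in CD4NIK, and all CD4NIK libraries were below all CD4cre libraries. CD4IKK1 spread around both, at 9.38 ± 20.5 (SD, n = 5), or 0.202 ± 0.124 (SD, n = 3) without CD4IKK1 1 and 2. Beta V counts per Trbc count were 0.0673, 0.0476 and 0.0446 in CD4cre, 0, 0.0219, 0.0187, 0.0438 and 0.0845 in CD4IKK1, and 0.0867, 0.0689 and 0.0669 in CD4NIK. Here CD4NIK had the higher mean, 0.0742 ± 0.0109 (SD, n = 3) against 0.0531 ± 0.0123 (SD, n = 3), with overlapping groups, so the means of the ratios differed in opposite directions for the 2 chains. The beta share of all V counts was 55.5%, 43.2% and 44.5% in CD4cre, 16.9%, 46.3%, 28.0% and 37.0% in CD4IKK1 2 to 5, and 57.0%, 50.9% and 53.7% in CD4NIK. The ratios are of counts, not per base, and compare libraries only.

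**Figure D4:**
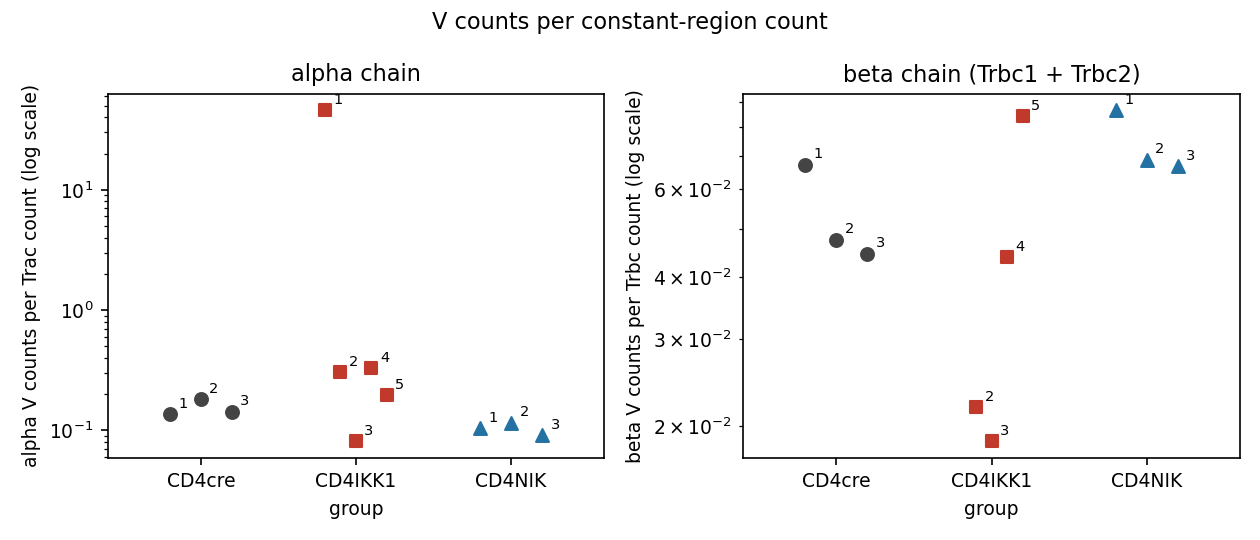
Alpha V counts per Trac count and beta V counts per Trbc count in each library (log y axis), by group. CD4cre and CD4NIK lie within narrow ranges (0.136 to 0.182 and 0.0913 to 0.116 for alpha), CD4IKK1 scatters over a wider range, the alpha point at 46.0 is CD4IKK1 1, and its beta ratio of 0 cannot be drawn on the log axis.

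Summed V segments read 120, 90.6 and 45.4 CPM in CD4cre, 2.97, 4.34, 20.5, 30.6 and 33.5 CPM in CD4IKK1, and 310, 472 and 487 CPM in CD4NIK. The groups did not overlap, and the means were 85.2 ± 37.3 (SD, n = 3), 18.4 ± 14.3 (SD, n = 5) and 423 ± 98.2 (SD, n = 3), with 28.2 ± 6.79 (SD, n = 3) in CD4IKK1 without replicates 1 and 2. Constant-region genes had summed levels of 630 to 1377, 2.65 to 645 and 3317 to 6375 CPM in CD4cre, CD4IKK1 and CD4NIK. There CD4NIK was again highest, but CD4cre and CD4IKK1 overlapped through CD4IKK1 3.

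In the gene-wise comparison of CD4IKK1 with CD4cre (edgeR quasi-likelihood test over 15653 features, Benjamini-Hochberg adjusted p under 0.05 and at least a 2-fold change), 20 V segments passed the filter on low counts, 8 alpha and 12 beta. None of the 20 passed the test, nor did any other feature (0% of all features tested lower and 0% higher). The fitted log2 fold change was negative for 19 of the 20, with a median of −2.37, or −2.26 with the segment at 0 in all CD4IKK1 libraries set at its bound, against 0.02 over all features. At an unadjusted p under 0.05 there were 6 of the 20, against 16.6% of all features, and DESeq2 called 0 V segments and 552 of all features. In 8 of the 20 (1 alpha and 7 beta) every CD4IKK1 library was below every CD4cre library, against 8.44% of all features tested. Without CD4IKK1 1 and 2 there were again 0 calls among 20 V segments (36 over all features), 3 at an unadjusted p under 0.05 (13.6% of all features), 18 negative changes with a median of −1.66, and 8 without overlap against 11.3% of all features. Since a segment can pass the filter through its CD4cre counts alone, the 20 do not stand for all 165 members.

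The largest differences of that comparison had wide errors. Trav16n had 22, 12 and 12 counts in CD4cre and 0 in all 5 CD4IKK1 libraries, and its adjusted p was 0.146 (edgeR). Trbv16 read 5.50, 3.07 and 0.852 CPM in CD4cre and 0, 0, 0.509, 0 and 0.766 CPM in CD4IKK1, with a log2 fold change of −3.58, or −2.87 without CD4IKK1 1 and 2. Trbv12-2 read 12.9, 5.50 and 4.41 CPM in CD4cre and 0, 0, 0.622, 0.348 and 3.29 CPM in CD4IKK1, a log2 fold change of −3.13 ± 1.31 (SE; edgeR adjusted p = 0.272), or −2.41 ± 0.94 (adjusted p = 0.317) without these libraries. Trav11 differed by −2.24 ± 1.58 on the log2 scale (SE; edgeR adjusted p = 0.548), or by −1.54 ± 1.30 (adjusted p = 0.695) without them. The standard errors of the 20 ran from 1.38 to 1.73 for alpha and from 1.19 to 1.57 for beta. None of 15 T cell complex genes, 3 constant-region genes or 7 neuron markers passed the test in this comparison either.

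Between CD4NIK and CD4cre, 73 V segments were tested among 15209 features (53 alpha and 20 beta). Of these, 27 were higher in CD4NIK (17 alpha and 10 beta) and 0 lower, against 10.4% of all features higher and 6.99% lower. All 73 fitted changes were positive, with a median log2 fold change of 2.50 against −0.02 over all features. As a segment can pass the filter through its CD4NIK counts alone, these values do not stand for all 165 members. The constant-region genes also rose, Trac by 2.74 ± 0.35, Trbc1 by 2.14 ± 0.39 and Trbc2 by 2.00 ± 0.33 on the log2 scale (SE). The number of V calls depended on single libraries: it was 3 without CD4cre 2, 4 without CD4cre 3, 3 without CD4NIK 2, 1 without CD4NIK 3 and 27 without CD4cre 1 or CD4NIK 1, while the calls over all features fell from 2649 to between 674 and 1001 in the first 4 of these. When all 11 libraries shared 1 fit it was 3, beside 2129 calls over all features, and with DESeq2 it was 51, beside 3873.

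Among the beta segments, Trbv2 read 3.65, 3.36 and 1.5 CPM in CD4cre and 44.0, 21.6 and 16.8 CPM in CD4NIK, and rose by 3.27 ± 0.53 (log2, SE; edgeR adjusted p = 0.0084). Trbv20 read 2.00, 0.292 and 0.201 CPM against 10.1, 12.3 and 11.2 CPM, the largest beta change at 3.71 ± 0.86 (log2, SE; edgeR adjusted p = 0.0238). Trbv3 read 2.65, 2.48 and 0.602 CPM against 7.61, 24.2 and 20.5 CPM (3.16 ± 0.67, log2, SE; edgeR adjusted p = 0.0189). In each of the 3 the groups did not overlap. Trbv13-2 rose by 2.83 ± 0.69 (log2, SE; edgeR adjusted p = 0.0266), and Trbv12-1, Trbv13-1, Trbv4, Trbv16, Trbv19 and Trbv1 rose by 2.18 to 2.90.

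Among the alpha segments, Trav7d-4 had 5, 1 and 1 counts in CD4cre and 24, 58 and 132 in CD4NIK, a log2 fold change of 5.38 ± 1.09 (SE; edgeR adjusted p = 0.0165). Trav14d-2 and its identical copy Trav14n-2 had 1, 0 and 1 counts each against 19, 25 and 18 (5.03 ± 1.12, log2, SE; edgeR adjusted p = 0.0214). Trav7d-2 had 0 counts in CD4cre and 27, 53 and 45 in CD4NIK, at least 17.7-fold higher against a floor of 3 counts per library. With its near-identical copy Trav7-2 added, the counts were 5, 1 and 0 against 27, 53 and 45, and the log2 fold change was 4.73 ± 1.15 (SE; edgeR adjusted p = 0.0262). Trav11 read 14.0, 27.1 and 6.72 CPM in CD4cre and 0.386, 74.3 and 40.4 CPM in CD4NIK, where CD4NIK 1 lay below all CD4cre libraries and the other 2 above them, and it did not pass the test (1.24 ± 1.17, log2, SE; edgeR adjusted p = 0.478). The libraries were also scaled to their summed V counts, so that the test asks about usage. Of the 73 segments, 2 were then called, Trav7d-2 and Trav7d-4. Under that scaling 72% of all features were called (10876 lower and 75 higher), so the adjustment over all features was weak. An unadjusted p under 0.05 was reached by 4 of the 73. With identical or contained copies summed as well, Trav7d-4 was called (3.11 ± 1.33, log2, SE; edgeR adjusted p = 0.0358), and the Trav7d-2 pair was not (2.68 ± 1.38; edgeR adjusted p = 0.0764), while the summed copies of Trav9n-2 and Trav9n-3 were. That scaling moved the median of all features to −2.48.

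**Figure D5:**
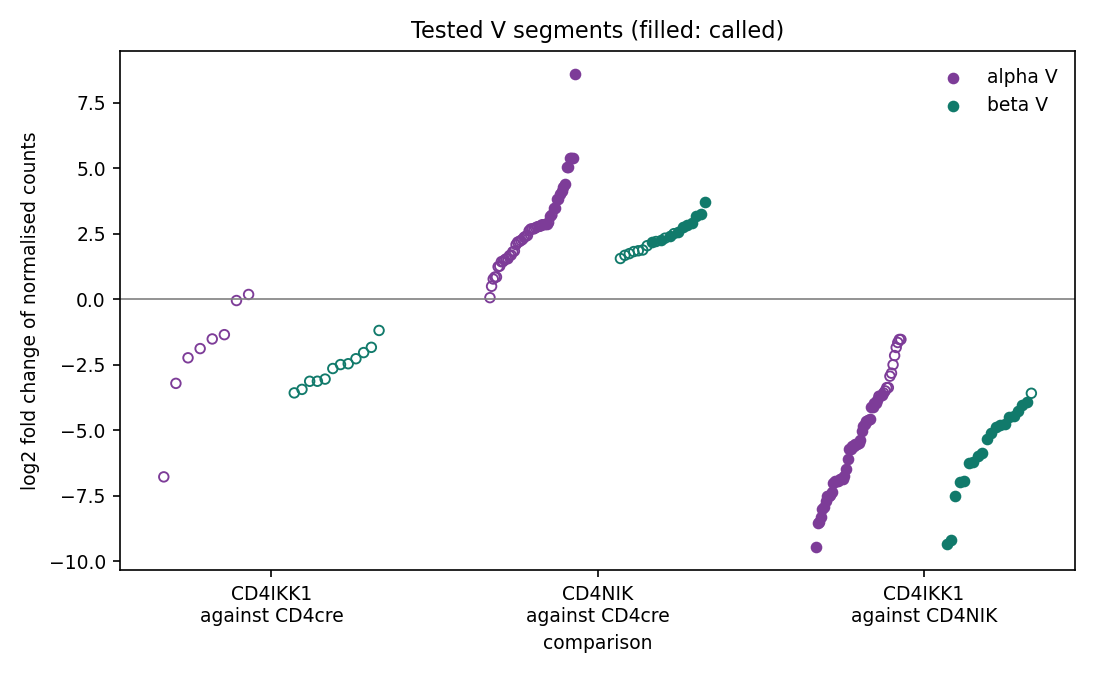
Fitted log2 fold changes (edgeR) of the V segments tested in each of the 3 comparisons, alpha and beta apart, with filled points for segments that passed the test. All points of CD4NIK against CD4cre are above 0 and 27 of 73 are filled, all points of CD4IKK1 against CD4NIK are below 0 and 60 of 75 are filled, and 0 of 20 are filled in CD4IKK1 against CD4cre.

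Between CD4IKK1 and CD4NIK, 75 V segments were tested among 16546 features. Of these, 60 were lower in CD4IKK1 (41 of 55 alpha and 19 of 20 beta) and 0 higher, against 18.5% of all features lower and 14.8% higher. The median log2 fold change was −5.38 against 0.06 over all features, or −4.50 with the 15 segments at 0 in every CD4IKK1 library set at their bounds. A segment can pass the filter through its CD4NIK counts alone, so neither the count nor the median stands for all 165 members. Without CD4IKK1 1 and 2 there were 54 calls with a median of −4.77, beside 30.1% of all features called in either direction, and leaving out single libraries gave 48 to 63, beside 23.5% to 33.5%. This comparison shares the CD4NIK and CD4IKK1 libraries with the others and is not independent of them.

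The segments at 0 in all 5 CD4IKK1 libraries give lower bounds. Trbv5 had 40, 8 and 5 counts in CD4cre and 46, 96 and 76 in CD4NIK, and was at least 26.1-fold lower in CD4IKK1 than in CD4NIK. Trbv12-1 had 10, 5 and 17 counts in CD4cre and 116, 62 and 25 in CD4NIK, and was at least 23.2-fold lower. Trav7d-4 was at least 27.9-fold lower and Trav12-2, with 48, 45 and 29 counts in CD4NIK, at least 14.3-fold lower. With the floor taken over CD4IKK1 3 to 5 alone, the bounds of these 4 were 27.8, 24.7, 29.7 and 15.2. Beta segments that were counted in both groups fell as well, with log2 fold changes of −6.26 ± 1.13 for Trbv13-2 and −6.21 ± 1.07 for Trbv3 (SE, edgeR adjusted p = 0.00113 and 0.000666). Without CD4IKK1 1 and 2 these were −5.59 ± 1.09 and −5.51 ± 0.936 (SE, edgeR adjusted p = 0.00332 and 0.00195). Trav11 (−3.50 ± 1.69, log2, SE; edgeR adjusted p = 0.128) and Trbv26, the 1 tested beta segment without a call (−3.59; edgeR adjusted p = 0.0708), did not pass. Trav7d-2, at 0 in CD4IKK1, was called too, and with Trav7-2 added its log2 fold change was −4.79 ± 1.53 (SE; edgeR adjusted p = 0.0237). Scaled to summed V counts, 5 segments were called lower, Trav12-2, Trav7d-2, Trav7d-4, Trbv12-1 and Trbv5. Under that scaling 87.1% of all features were called (62 lower and 14344 higher), so the adjustment over all features was weak. An unadjusted p under 0.05 was reached by 6 of the 75 V segments. With copies summed as well, the Trav7d-2 pair no longer differed beyond its error (−0.65 ± 1.86, log2, SE; edgeR adjusted p = 0.738), while Trav12-2, Trav7d-4, Trbv12-1, Trbv5 and the summed copies of Trav14n-2 were called. That scaling moved the median of all features to 5.79.

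Markers of other cells differed between the groups as well, in the direction of the V segments or against it. Of 15 T cell complex genes, 11 were higher in CD4NIK than in CD4cre (10.4% of all features) and 13 were lower in CD4IKK1 than in CD4NIK (18.5%). Of 7 neuron markers, 4 were lower in CD4NIK than in CD4cre (6.99% of all features) and 7 were higher in CD4IKK1 than in CD4NIK (14.8%). Summed B cell markers were 70.0 to 140, 4.20 to 26.3 and 198 to 670 CPM in CD4cre, CD4IKK1 and CD4NIK and those of CD8 T and natural killer cells 30.4 to 55.1, 1.57 to 15.4 and 151 to 226 CPM. Markers of macrophages were 439 to 1846, 98.7 to 256 and 633 to 950 CPM, and those of kidney tubules 17.1 to 65.8, 3.17 to 8.74 and 12.8 to 94.1 CPM. A list of 5 genes (Rag1, Rag2, Dntt, Ptcra and Cd1d1) summed to 6.97 to 25.7, 1.16 to 8.00 and 40.4 to 74.5 CPM. Most of the sum in CD4cre and CD4NIK was Cd1d1, at 3.96 to 23.7 and 36.8 to 69.6 CPM, so it does not measure recombination. Rag2 read 0.389 to 1.30, 0.451 to 1.67 and 0.246 to 1.43 CPM in CD4cre, CD4IKK1 and CD4NIK. Dntt read 0 to 1.10, 0 to 1.24 and 2.02 to 3.25 CPM. Rag1, which encodes a subunit of the recombinase, was at 0 in all libraries but CD4NIK 3 (0.71 CPM). The part of these cells in the V segment differences was not tested.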

How the data were processed

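RNA from sorted renal CD4+ T cells, a small number of cells per sample, was made into SMARTer libraries. Per the labels the reads were trimmed with Trimmomatic and quantified with kallisto; the kallisto version is not given in the sources used here, and the labels name mm10 whereas the study's methods name GRCm39. The deposited values are estimated counts per gene symbol, as the authors summed them, and were rounded. V and constant regions are separate annotated transcripts there, so reads across the junction match neither fully. All 165 segments were matched by symbol to GENCODE M39 (GRCm39), from which sequences and positions were taken.

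Shares use libraries with at least 50 counts of a chain, and detection means over 3 counts. Gene-wise tests used edgeR 4.0.16 (TMM factors, filterByExpr, quasi-likelihood; calls need an adjusted p under 0.05 and a 2-fold change) in R 4.3.3, on all features, with DESeq2 1.42.0 as alternative. CD4NIK and CD4IKK1 were each tested against CD4cre on the libraries of both groups, and against each other in a fit of all 11. Library measures were compared by two-sided exact permutation tests (scipy 1.17.1), adjusted over 13 measures; summed V CPM and the V per constant ratios are given as values. Scripts were tested on simulated counts. Named segments were the most used of each chain, those with the largest changes and the segments of invariant T cells. The members and gene lists were chosen with earlier results of these data known. Deviations from the group means correlated at −0.089 to 0.077 for same-numbered samples and at −0.066 to 0.091 for differently numbered ones. The samples were treated as unpaired, and a shared batch was not tested.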

Additional observations from a re-analysis of the deposited data

Results flagged for a closer look

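Among 28 group checks (measures and the most used segments, in the 5 CD4IKK1 libraries), 6 had a library farther from the rest than Dixon's limit allows, and chance alone marks about 1 in 20 groups. Alpha V counts per Trac count were 46.0 in CD4IKK1 1, the library with 1 Trac count, against 0.0810 to 0.329 in the other 4. CD4IKK1 3 stood apart in Trav14-3 (3.39 CPM), Trav3-3 (0.961 CPM) and Trbv13-1 (2.54 CPM). CD4IKK1 5 stood apart in Trav9-1 (0.766 CPM) and Trbv12-2 (3.29 CPM). Compared directly in the edgeR test, 60 of 75 V segments were lower in the libraries labelled CD4IKK1 than in those labelled CD4NIK, against 18.5% of all features. Scaled to summed V counts, 5 were lower, where 87.1% of all features were called in either direction. Summed T cell complex genes were 224 to 1006 against 5530 to 6575 CPM.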

How the results depend on the processing

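Few V counts limit all shares in CD4IKK1, and the copies of a segment limit single alpha genes. Of the settings other than leaving out 1 library, 138 kept direction and side of the threshold. The following did not, and where no cause is given it was not tested. Leaving out CD4IKK1 1 and 2, chosen after seeing the data, gave differences from CD4cre of −27.3 alpha segments, −8.33 beta segments and −57.0 V CPM, and from CD4NIK of −69.7, −10.7 and −395, −15.2 alpha segments at equal depth, −30.6 effective alpha segments and 30.0 points in the alpha top 5; with 3 against 3 libraries the exact permutation test cannot go below p = 0.1. The same limit holds for a minimum of 200 counts (−28.9 effective alpha segments, 25.4 points) and a depth of 200 counts (−25.2 segments) against CD4NIK. For CD4IKK1 against CD4cre, summed subgroups gave −2.78 alpha segments at equal depth and 13.1 points in the top 5, the most used alpha segment alone −3.80 points (a reversal), inverse Simpson without Trav11, added after seeing the data, −24.4, and V counts with a prior count of 2 −2.67 on the log2 scale. Against CD4NIK, inverse Simpson gave −13.3 and the most used segment alone 11.8 points. Reversals also occurred for effective beta segments per base in CD4NIK against CD4cre (0.0409) and for Trav13 to Trav23 in place of Trav17 to Trav23 (−3.44 points in CD4NIK against CD4cre, 4.07 in CD4IKK1 against CD4NIK).

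V calls in CD4NIK against CD4cre were 51 of 165 with DESeq2 (10.8% of all features called). When scaled to V or to constant-region counts they were 2 of 73 (72% and 69.2% of all features). They were 11 of 13 with at least 10 counts in every library (24.9%) and 3 of 75 in the fit of all libraries (12.9%). With the replicate block they were 4 of 73 (7.79%). In CD4IKK1 against CD4NIK, V calls were 5 (all lower) and 7 with those scalings, beside 87.1% and 87.6% of all features. Of the 7, 2 were higher in CD4IKK1, Trav5d-4 and its identical copy Trav5n-4 (log2 fold change 6.14). With the block there were 50, beside 30.2% of all features. The block made no V call in CD4IKK1 against CD4cre, beside 3 calls over all features. The filter of 10 counts in every library left no V segment in the 2 comparisons with CD4IKK1. Summing identical or contained transcripts gave 0, 24 and 54 V calls, beside 0%, 17.4% and 33.3% of all features. Summing them with scaling to V counts, added after seeing the data, gave 0, 3 and 5, beside 59.9%, 72% and 87.1%.

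Leaving out 1 library at a time kept direction and side in 237 values and turned or lost the following, given as ranges over the libraries left out. V calls were 1 to 27 in CD4NIK against CD4cre, beside 4.17% to 21.6% of all features. In CD4IKK1 against CD4cre the differences were −14.8 to −11.0 beta segments detected and −0.380 to 0.507 points in Trav17 to Trav23, which turned without CD4cre 2, CD4IKK1 3 or CD4IKK1 5. In CD4NIK against CD4cre they were −0.483 to 0.345 beta segments at equal depth, −0.827 to 0.792 effective beta segments and −0.859 to 4.13 points in the beta top 5, and all 3 turned without CD4NIK 1, the first also without CD4cre 1 and the second without CD4cre 1 or 2. In CD4IKK1 against CD4NIK they were −17.1 to −13.3 beta segments detected, −18.5 to −15.2 alpha segments at equal depth, −36.0 to −28.0 effective alpha segments, 28.7 to 34.9 points in the alpha top 5 and −0.0531 to −0.0320 beta V counts per Trbc count.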
